A study of Rattus norvegicus with 32 samples.

Results

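The genes described here are 34 chaperones, folding enzymes and unfolded protein response factors, chosen by symbol from 34322 gene symbols counted in the rat nucleus accumbens shell. All 34 were in the count table, and all 34 were among the 17059 genes that passed a filter on low counts. By role they are 14 chaperones and folding enzymes of the endoplasmic reticulum (ER), 7 regulators of the unfolded protein response or genes of ER-associated degradation (ERAD), 10 cytosolic chaperones or their regulators, and 3 mitochondrial chaperones.

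Chaperones bind unfolded proteins and help them fold. When unfolded proteins build up in the ER, the sensors Ire1, Perk and Atf6 start the unfolded protein response, in which the factors Xbp1, Atf6 and Atf4 raise transcription of ER chaperones, ERAD components and stress genes such as Ddit3. In the cytosol the factor Hsf1 does the same for heat shock proteins, and neurons carry a high load of protein synthesis and secretion that leans on these systems.

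Polyadenylated RNA was sequenced from 32 libraries of shell tissue of wild-type rats, in 4 groups of 8. The animals had been fear-conditioned with shocks tied to a lemon odour (here the anxiety cue) or to a neutral cue, and took tests of anxiety with that cue after a dose of cannabidiol (CBD, a non-intoxicating cannabis compound) or of vehicle. Tissue was taken after a last shock, so every group, the controls included, had been shocked. The groups were CBD with the anxiety cue, vehicle with the anxiety cue, CBD with the neutral cue and vehicle with the neutral cue. The labels give no dose, strain, sex, age or batch, and do not say whether any 2 libraries share a rat. The p-values thus reflect library-to-library spread, which may be partly technical.

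Library totals ran from 11.65 to 24 M counts. All 12 markers of striatal medium spiny neurons were measured, and their summed level ran from 1510 to 9620 CPM (counts scaled to library size). The 9 septal and pallidal markers, all measured, summed to 53.4 to 203 CPM in CBD anxiety-cue libraries, 60.8 to 254 CPM in vehicle anxiety-cue libraries, 51.6 to 105 CPM in CBD neutral-cue libraries and 71 to 305 CPM in vehicle neutral-cue libraries. Slc17a6, the glutamate transporter of subcortical neurons, was 20 CPM or more in 6 libraries, of which 2 were CBD anxiety cue, 1 vehicle anxiety cue, 0 CBD neutral cue and 3 vehicle neutral cue. Alb of liver was 30 CPM or more in 4 CBD anxiety-cue, 2 vehicle anxiety-cue, 4 CBD neutral-cue and 0 vehicle neutral-cue libraries. Plin1 of fat cells was 6 CPM or more in 2 CBD anxiety-cue, 3 vehicle anxiety-cue, 0 CBD neutral-cue and 5 vehicle neutral-cue libraries. The liver markers, 7 in the list and 5 tested, summed to 7.36 to 167 CPM in CBD anxiety-cue, 8.77 to 162 CPM in vehicle anxiety-cue, 4.64 to 480 CPM in CBD neutral-cue and 5.88 to 27.1 CPM in vehicle neutral-cue libraries. The fat cell markers, 6 of 7 measured, summed to 67.8 to 195 CPM in CBD anxiety-cue, 120 to 223 CPM in vehicle anxiety-cue, 91.7 to 155 CPM in CBD neutral-cue and 47.5 to 216 CPM in vehicle neutral-cue libraries. In that same order of groups, the median sums were 104, 68.7, 68.4 and 113 CPM for the septal and pallidal markers. They were 37.1, 15.9, 61.9 and 10.2 CPM for the liver markers, and 129, 137, 116 and 197 CPM for the fat cell markers. No marker of these lists was at 0 in every library. In bulk tissue, fewer cells of a type and less RNA per cell cannot be told apart.

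The promoters of the classes hold different short elements in the reference genome. RefSeq's table for the build GRCr8 held the 250 bases before and 50 bases after the start site of 28 of the 34 genes, and none was found for Manf, Pdia3, Pdia6, Atf6, Hsp90aa1 and Hsf1. Each was searched on both strands for the ER stress response element, here CCAAT and CCACG with 9 bases between them, the site class bound by Atf6 with NF-Y. It was present in 7 of the 28 (25%), against 22 of 33469 promoters of the same length in the table (0.0657%). Matches in 6 genes are shown, because the element falls in 6 of the 11 ER chaperone promoters and in that of the regulator Xbp1. Capitals mark the element with its spacer, and sequences read along the strand of the gene.
Hspa5 (chr3:38452963-38453001, +): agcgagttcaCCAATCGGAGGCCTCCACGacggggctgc
Hsp90b1 (chr7:23012441-23012479, -): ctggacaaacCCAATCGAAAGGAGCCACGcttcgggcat
Dnajc3 (chr15:102432524-102432562, +): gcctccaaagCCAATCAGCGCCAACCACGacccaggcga
Xbp1 (chr14:84604548-84604586, +): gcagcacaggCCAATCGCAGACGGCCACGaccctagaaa
Calr (chr19:40213125-40213163, +): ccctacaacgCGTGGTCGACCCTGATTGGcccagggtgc
Creld2 (chr7:121789229-121789267, +): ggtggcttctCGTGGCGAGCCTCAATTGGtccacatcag
In Calr and Creld2 the element reads on the opposite strand. Hsp90b1 held a second match, on the opposite strand and nearer to its start site.

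A related element with the same half-sites, ATTGG and CCACG with 1 base between them, was present in Dnajb11, Herpud1 and Hyou1, 3 of 28 promoters (10.7%) against 17 of 33469 (0.0508%). The heat shock element, here GAA, TTC and GAA with 2 bases between neighbours or its reverse, was present in Hspa8, Hsph1, Dnaja1, Hspd1 and Hspe1, 5 of 28 (17.9%) against 267 of 33469 (0.798%). Hspd1 and Hspe1 lie head to head and their windows share the same matching bases. None of the 11 ER promoters held the heat shock element, and none of the 8 cytosolic promoters held either ER element. A match describes the letters in a window and is not evidence of binding.
Dnajb11 (chr11:91672790-91672820, -): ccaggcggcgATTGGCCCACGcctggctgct
Herpud1 (chr19:10614811-10614841, -): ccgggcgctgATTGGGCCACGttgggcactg
Hyou1 (chr8:53602784-53602814, +): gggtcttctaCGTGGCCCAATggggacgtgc
Hspa8 (chr8:50080291-50080323, +): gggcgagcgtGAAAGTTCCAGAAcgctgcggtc
Hsph1 (chr12:10427322-10427354, +): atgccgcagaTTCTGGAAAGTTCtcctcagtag
Hspe1 (chr9:64084252-64084284, +): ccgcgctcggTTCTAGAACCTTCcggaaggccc

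Across the 4 groups, the vehicle neutral-cue group had the highest mean of 26 of the 34 genes, including all 14 ER chaperones and all 3 mitochondrial chaperones. The vehicle anxiety-cue group had the lowest mean of 22 genes, 11 of them ER chaperones. The order of group means was not counted over all genes, so these counts are not shown to be particular to the 34. The group ranges overlapped for every gene of the 34, so the levels below differ in their middle and not as separate sets. Nearly all genes overlapped too, so this is not particular to the 34. Of 17059 genes, 1 did not overlap for the anxiety cue in vehicle and 0 for CBD with the anxiety cue. For CBD with the neutral cue 18 did not, and for the anxiety cue in CBD 3 did not. Glial marker lists also had their highest medians in the vehicle neutral-cue group. The 8 astrocyte markers, all measured, summed to 2580 to 3260 CPM (median 2850) in CBD anxiety-cue, 2630 to 3190 CPM (2770) in vehicle anxiety-cue, 2530 to 3880 CPM (2910) in CBD neutral-cue and 2250 to 3640 CPM (3290) in vehicle neutral-cue libraries. The 8 microglia markers, all measured, summed to 209 to 272 CPM (211), 192 to 305 CPM (218), 191 to 273 CPM (218) and 208 to 298 CPM (270) in the same order of groups. The 8 oligodendrocyte markers, all measured, summed to 5030 to 9750 CPM (6980), 5800 to 11700 CPM (7910), 3890 to 8210 CPM (6940) and 7630 to 11400 CPM (8740). The 12 medium spiny neuron markers had their lowest median in vehicle neutral-cue libraries, 5720 CPM, against 6390 CPM in CBD anxiety-cue, 7020 CPM in vehicle anxiety-cue and 6810 CPM in CBD neutral-cue libraries. No marker of these 4 lists was at 0 in every library, the ranges overlapped, and the part of astrocyte and microglia levels in the results was not tested. Values are given as the lowest, median and highest CPM of the 8 libraries of a group.

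Hspa5, the master ER chaperone BiP, was at 450, 518 and 637 CPM in CBD anxiety-cue libraries, 384, 483 and 550 CPM in vehicle anxiety-cue libraries, 449, 520 and 594 CPM in CBD neutral-cue libraries, and 448, 591 and 636 CPM in vehicle neutral-cue libraries. The median of the last group was above every vehicle anxiety-cue library. Manf, a secreted ER stress protein that protects dopamine neurons, was at 68.4, 74.5 and 84.8 CPM in CBD anxiety-cue, 57.6, 72.1 and 78 CPM in vehicle anxiety-cue, 71.8, 76.9 and 86.2 CPM in CBD neutral-cue, and 67.2, 89.3 and 106 CPM in vehicle neutral-cue libraries. Sdf2l1, a component of the ER chaperone complex, was at 10.2, 16.9 and 18.7 CPM in CBD anxiety-cue, 11, 15.2 and 18.4 CPM in vehicle anxiety-cue, 15, 16 and 24.9 CPM in CBD neutral-cue, and 11.4, 20.9 and 27.5 CPM in vehicle neutral-cue libraries. For both genes the vehicle neutral-cue median was above all vehicle anxiety-cue libraries, while the lowest libraries of the neutral-cue group lay inside the range of the others.

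Pdia4, a protein disulfide isomerase, was at 47.6, 55 and 63.5 CPM in CBD anxiety-cue, 42, 52.6 and 61.3 CPM in vehicle anxiety-cue, 47.7, 56.8 and 60.9 CPM in CBD neutral-cue, and 52.4, 63.4 and 70.6 CPM in vehicle neutral-cue libraries. Calr, the lectin chaperone calreticulin, was at 405, 465 and 498 CPM in CBD anxiety-cue, 376, 429 and 473 CPM in vehicle anxiety-cue, 413, 452 and 486 CPM in CBD neutral-cue, and 433, 486 and 553 CPM in vehicle neutral-cue libraries. For both, as for Hspa5, the 2 CBD medians lay between the 2 vehicle medians. Hsp90b1, the ER paralog of Hsp90, was at 454, 516 and 529 CPM in CBD anxiety-cue, 425, 471 and 549 CPM in vehicle anxiety-cue, 469, 497 and 531 CPM in CBD neutral-cue, and 405, 508 and 552 CPM in vehicle neutral-cue libraries. Its group medians lay within the range of each group.

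Creld2, an ER stress-induced isomerase, was at 13.4, 15.4 and 18 CPM in CBD anxiety-cue, 13.3, 16.8 and 20 CPM in vehicle anxiety-cue, 13.5, 15.5 and 20.3 CPM in CBD neutral-cue, and 14.4, 18.4 and 20.1 CPM in vehicle neutral-cue libraries. Hyou1, a large ER chaperone that acts as exchange factor for Hspa5, was at 179, 199 and 212 CPM in CBD anxiety-cue, 170, 193 and 213 CPM in vehicle anxiety-cue, 160, 178 and 203 CPM in CBD neutral-cue, and 175, 200 and 227 CPM in vehicle neutral-cue libraries. For these 2 genes the CBD medians were not both between the vehicle medians. Creld2 had its lower medians in the CBD groups, and Hyou1 had its lowest in CBD neutral-cue libraries.

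Among the regulators, Xbp1 was at 106, 118 and 123 CPM in CBD anxiety-cue, 87, 104 and 126 CPM in vehicle anxiety-cue, 101, 115 and 125 CPM in CBD neutral-cue, and 99.2, 118 and 132 CPM in vehicle neutral-cue libraries. Atf4, the effector of the Perk branch, was at 69.8, 89 and 128 CPM in CBD anxiety-cue, 70, 80.3 and 135 CPM in vehicle anxiety-cue, 69.1, 81.6 and 128 CPM in CBD neutral-cue, and 88.3, 104 and 167 CPM in vehicle neutral-cue libraries. Ddit3, the stress factor CHOP, which Atf4 activates, was at 10.9, 17.3 and 28.5 CPM in CBD anxiety-cue, 11.6, 16.6 and 24 CPM in vehicle anxiety-cue, 12.3, 16.2 and 19.2 CPM in CBD neutral-cue, and 18.2, 19.5 and 29.9 CPM in vehicle neutral-cue libraries. In every group the highest library for Atf4 stood farther from the median than the lowest did. For Ddit3 the lowest vehicle neutral-cue library was above the medians of the other 3 groups. Herpud1, an ERAD scaffold, was at 32.2, 37.7 and 45.8 CPM in CBD anxiety-cue, 31, 36.7 and 45.1 CPM in vehicle anxiety-cue, 32.4, 36 and 56 CPM in CBD neutral-cue, and 33.5, 39.6 and 51.9 CPM in vehicle neutral-cue libraries. Its groups overlapped over most of their ranges.

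In the cytosol, Hspa8, the constitutive Hsc70, was at 1350, 1480 and 1610 CPM in CBD anxiety-cue, 1270, 1430 and 1570 CPM in vehicle anxiety-cue, 1250, 1440 and 1670 CPM in CBD neutral-cue, and 1320, 1560 and 1750 CPM in vehicle neutral-cue libraries. Hsp90aa1, the inducible Hsp90, was at 738, 843 and 922 CPM in CBD anxiety-cue, 744, 822 and 964 CPM in vehicle anxiety-cue, 736, 838 and 1040 CPM in CBD neutral-cue, and 651, 956 and 1120 CPM in vehicle neutral-cue libraries. Both had their highest median in vehicle neutral-cue libraries. Hsph1, an exchange factor of the Hsp110 family, was at 425, 581 and 662 CPM in CBD anxiety-cue, 384, 566 and 656 CPM in vehicle anxiety-cue, 502, 580 and 680 CPM in CBD neutral-cue, and 382, 520 and 605 CPM in vehicle neutral-cue libraries. It ran the other way, with its lowest median in vehicle neutral-cue libraries. Hsf1 was at 54.2, 59.4 and 65.8 CPM in CBD anxiety-cue, 51.8, 56.6 and 62 CPM in vehicle anxiety-cue, 43.6, 56.9 and 63.3 CPM in CBD neutral-cue, and 37.6, 52 and 76.4 CPM in vehicle neutral-cue libraries. Its vehicle neutral-cue range enclosed the other 3 ranges.

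Dnajb1, the main J-domain partner of heat shock Hsp70, was at 81.9, 94.3 and 119 CPM in CBD anxiety-cue, 80, 91.8 and 115 CPM in vehicle anxiety-cue, 76.8, 88.4 and 110 CPM in CBD neutral-cue, and 77, 103 and 118 CPM in vehicle neutral-cue libraries. Bag3, a co-chaperone of selective autophagy, was at 16, 19.1 and 24.8 CPM in CBD anxiety-cue, 14.9, 18.9 and 26.9 CPM in vehicle anxiety-cue, 11, 19.2 and 21.5 CPM in CBD neutral-cue, and 18.2, 22.9 and 31.5 CPM in vehicle neutral-cue libraries. Hspb1, the small heat shock protein Hsp27, was at 3.63, 5.88 and 9.6 CPM in CBD anxiety-cue, 3.6, 5.73 and 7.09 CPM in vehicle anxiety-cue, 3.74, 5.93 and 8.08 CPM in CBD neutral-cue, and 3.17, 6.1 and 8.96 CPM in vehicle neutral-cue libraries. Bag3 had its highest median in vehicle neutral-cue libraries, and the medians of Hspb1 lay close together beside its spread.

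In mitochondria, Hspa9, the matrix Hsp70 mortalin, was at 220, 256 and 283 CPM in CBD anxiety-cue, 219, 239 and 291 CPM in vehicle anxiety-cue, 220, 242 and 282 CPM in CBD neutral-cue, and 207, 258 and 310 CPM in vehicle neutral-cue libraries. Hspd1, the chaperonin Hsp60, was at 188, 210 and 232 CPM in CBD anxiety-cue, 186, 207 and 235 CPM in vehicle anxiety-cue, 191, 211 and 228 CPM in CBD neutral-cue, and 160, 229 and 249 CPM in vehicle neutral-cue libraries. Hspe1, its lid Hsp10, was at 47.5, 53.8 and 61.6 CPM in CBD anxiety-cue, 46.2, 53.5 and 58.4 CPM in vehicle anxiety-cue, 47.2, 56 and 63.1 CPM in CBD neutral-cue, and 49.3, 59.4 and 86.7 CPM in vehicle neutral-cue libraries. All 3 had their highest median in vehicle neutral-cue libraries, and for Hspa9 and Hspd1 that group held both the lowest and the highest library of all 32.

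Over the 32 libraries, the disulfide isomerases Pdia3 and Pdia6 ran from 204 to 269 CPM and from 129 to 193 CPM. The J-domain partners of Hspa5, Dnajb11 and Dnajc3, ran from 49.3 to 72.5 CPM and from 16.4 to 26.5 CPM. Atf6 ran from 49.7 to 74.6 CPM, and the ERAD genes Sel1l and Edem1 from 157 to 241 CPM and from 29.1 to 42.2 CPM. In each of these 7 genes all 4 groups overlapped, as the groups did for nearly all genes tested. Of the cytosolic chaperones, Hspa4 ran from 239 to 346 CPM, Hsp90ab1 from 1680 to 2040 CPM and Dnaja1 from 271 to 458 CPM.

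**Figure D1:**
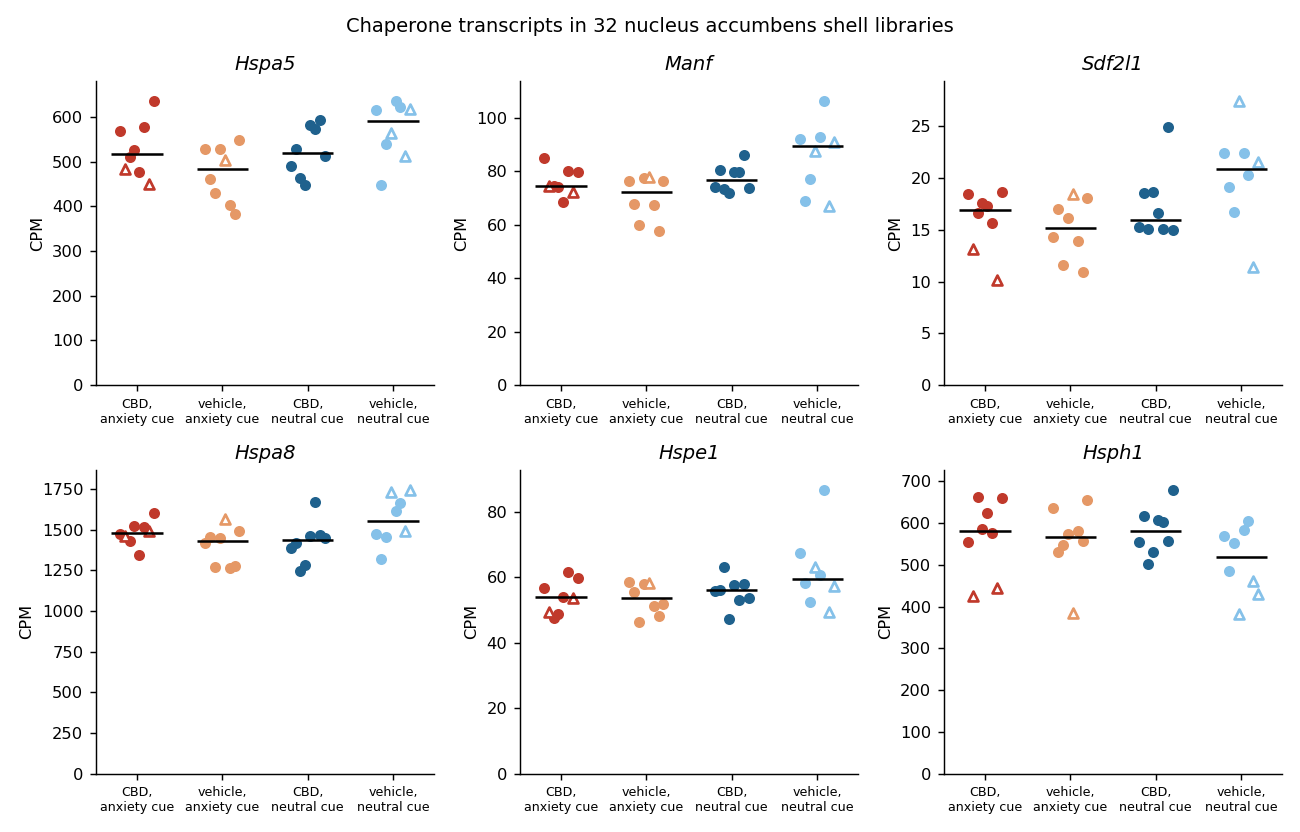
Level in CPM (vertical axis, from 0) of 6 genes in each library by group (horizontal axis); horizontal bars are medians of 8 libraries, and open triangles are the 6 libraries with Slc17a6 of 20 CPM or more. Hspa5, Manf and Sdf2l1 had their highest medians (591, 89.3 and 20.9 CPM) in vehicle neutral-cue libraries, and the triangles are the lowest points of Hsph1.

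Vehicle libraries of the 2 cues were compared to ask what the anxiety cue did in rats given no drug. With the anxiety cue the ER chaperones were the class with the lowest median log2 fold change, -0.19, and all 14 lay below 0. The regulators and ERAD genes had a median of -0.11 with 4 of 7 below 0, the cytosolic chaperones -0.12 with 8 of 10, and the mitochondrial chaperones -0.13 with 3 of 3. Over all 34 the median was -0.17, against 0.00037 over all 17059 genes. No gene passed an adjusted p of 0.05 by edgeR's quasi-likelihood test (0% called), by DESeq2 or by voom, although 2175 genes had an unadjusted p under 0.05. At that unadjusted level 17 of the 34 genes were lower and 0 higher, where the shares of all genes were 6.34% lower and 6.41% higher. The 17 were 9 ER chaperones, 3 regulators, 4 cytosolic chaperones and 1 mitochondrial chaperone.

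Manf, lower with the anxiety cue by the smallest p of the 34, had a log2 fold change of -0.29 (SE 0.079, adjusted p = 0.353 by edgeR). Dnajb11, an ER J-domain partner of Hspa5, was at -0.19 (SE 0.054, adjusted p = 0.353 by edgeR). Hspa5 was at -0.27 (SE 0.087, adjusted p = 0.374 by edgeR). Sdf2l1 had the most negative fold change of all 34 genes, -0.43 (SE 0.14), in step with its per-library values above.

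Of the regulators, Ddit3 was at -0.41 (SE 0.16) and Atf4 at -0.38 (SE 0.15), both with adjusted p = 0.374 by edgeR. Of the cytosolic chaperones, Hspa8 was at -0.16 (SE 0.065, adjusted p = 0.374 by edgeR) and Bag3 at -0.29 (SE 0.12, adjusted p = 0.377 by edgeR). Of the mitochondrial chaperones, Hspe1 was at -0.21 (SE 0.084), Hspa9 at -0.13 (SE 0.075) and Hspd1 at -0.089 (SE 0.070). The 5 genes above 0 were Hsph1 at 0.13 (SE 0.11), Hsf1 at 0.11 (SE 0.092), Atf6 at 0.069, Edem1 at 0.057 and Sel1l at 0.0034, so the Hsf1 and Atf6 transcripts themselves stood on the other side from most of the chaperones. None of these 5 had an unadjusted p under 0.05, and Hsph1 (-0.039 with composition covariates) and Sel1l (-0.027 by voom) turned under another setting.

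The other 10 ER members were Pdia4, Dnajb9, Pdia6, Canx, Calr, Dnajc3 and Pdia3, between -0.24 and -0.17, and, nearer to 0, Hyou1 at -0.099 (SE 0.061), Creld2 at -0.089 (SE 0.091) and Hsp90b1 at -0.054 (SE 0.059). These last 3, Canx and Dnajb9 had an unadjusted p above 0.05. Hsp90ab1, the constitutive Hsp90, was at -0.004 and Hspa4, an Hsp110 relative, at -0.023. By promoter element, the 7 genes with the ER stress response element ranged from -0.27 to -0.054 with a median of -0.18, the 3 with its relative from -0.19 to -0.099, and the 5 with the heat shock element from -0.21 to 0.13 with a median of -0.16. The genes with the ER and the heat shock elements thus had overlapping ranges of fold change.

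**Figure D2:**
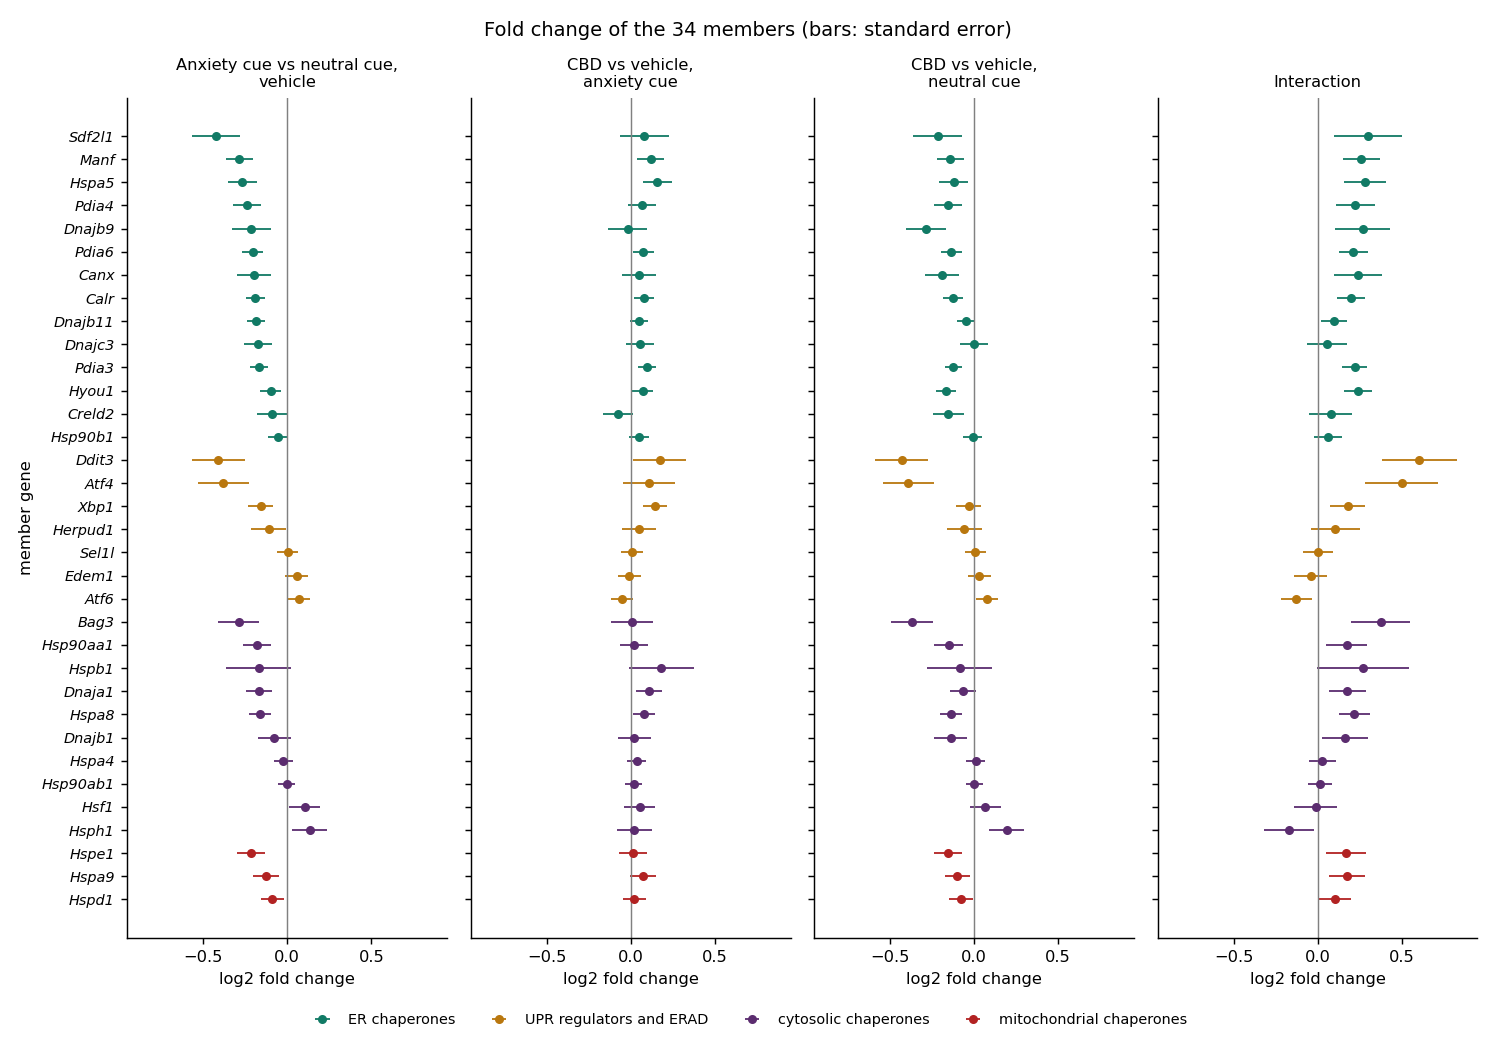
Log2 fold change (horizontal axis, bars are standard errors) of the 34 genes (vertical axis), colored by class, in 4 comparisons. In vehicle libraries 29 of 34 points lie below 0 for the anxiety cue, and in the interaction 30 of 34 lie above 0.

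Part of this list differed between the 6 libraries with Slc17a6 of 20 CPM or more and the other 26. Of those 6, 3 were vehicle neutral-cue and 0 CBD neutral-cue libraries, so group and neighbouring tissue are mixed in this split. The part of each was not tested. Genes outside the list were not compared in this split, so a separation is not shown to be particular to the listed genes. Hsph1 was at 382 to 461 CPM in the 6 libraries with high Slc17a6 and 487 to 680 CPM in the other 26, with no overlap. Canx, the membrane lectin chaperone calnexin, was at 663 to 838 CPM in the 6 libraries and 425 to 678 CPM in the others. Atf4 was at 109 to 167 CPM in those 6 and 69.1 to 128 CPM in the others. Ddit3 was at 19.5 to 29.9 CPM in the 6 and 10.9 to 22.3 CPM in the others, and Dnajb9, an ER J-domain protein, at 37.3 to 49.8 CPM in the 6 and 21.2 to 45 CPM in the others. For each of these 4 genes at most 2 of the other 26 libraries reached the range of the 6. Hspa5, at 450 to 619 CPM in the 6 libraries and 384 to 637 CPM in the other 26, did not separate them, nor did Manf at 67.2 to 91.1 CPM in the 6 and 57.6 to 106 CPM in the others.

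**Figure D3:**
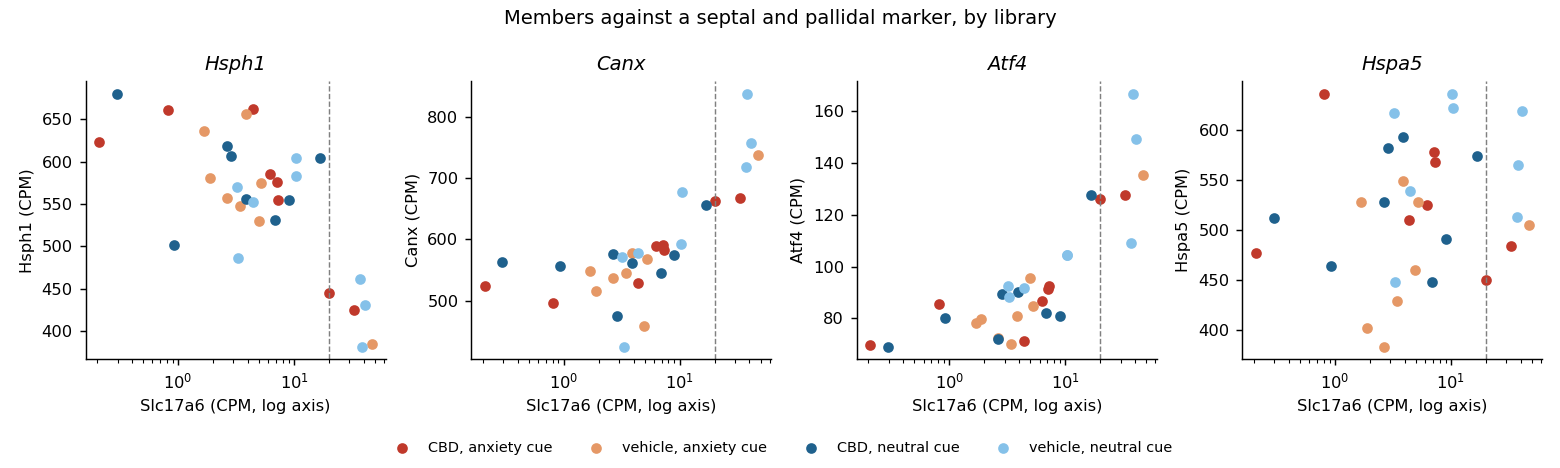
Level in CPM of 4 genes (vertical axes, not from 0) against Slc17a6 in CPM (log horizontal axis) in 32 libraries colored by group; the dashed line is 20 CPM. Right of the line Hsph1 is at most 461 CPM and Canx at least 663 CPM, while Hspa5 spans 450 to 619 CPM.

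With the mean levels of 4 marker lists (septal and pallidal, cortical, choroid plexus, oligodendrocyte) as covariates, the classes parted. The ER chaperones kept a median of -0.14 in vehicle libraries, 14 of 14 below 0, and 8 of 14 were lower at an unadjusted p under 0.05, where 3.43% of all genes were lower in that fit. The regulators were then at a median of -0.004 and the cytosolic chaperones at -0.057, with 0 of 7 and 0 of 10 under 0.05, and the mitochondrial chaperones at -0.017 with 1 of 3. The 8 were Hspa5 (-0.25), Manf (-0.26), Sdf2l1 (-0.40), Calr (-0.20), Dnajb11 (-0.22), Pdia3 (-0.14), Pdia4 (-0.18) and Pdia6 (-0.14), and the mitochondrial one was Hspe1 (-0.22). Under the same covariates Canx was at -0.033, Dnajb9 at -0.045, Hyou1 at -0.024, Atf4 at -0.080 and Hspa9 at -0.0072. No gene passed the adjusted threshold in that fit.

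**Figure D4:**
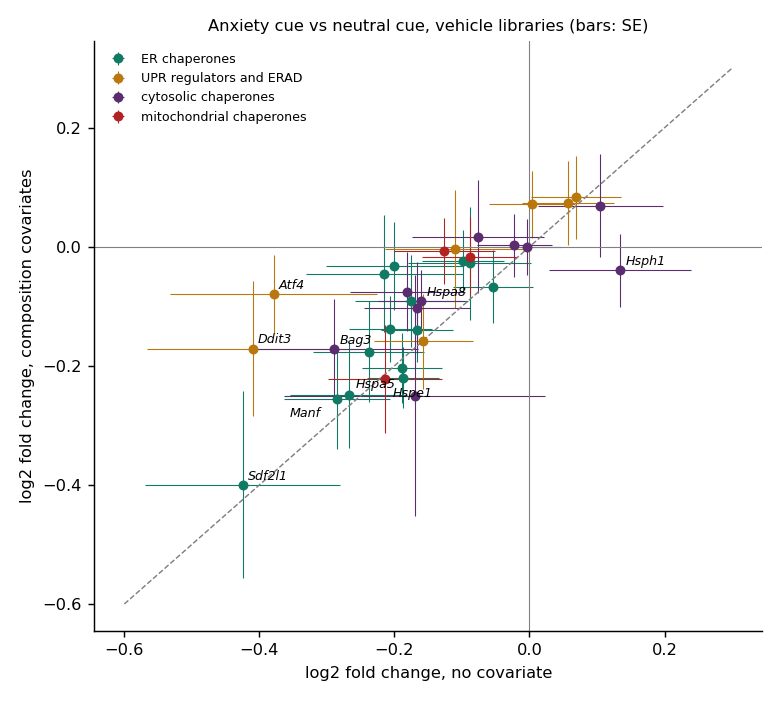
Log2 fold change for the anxiety cue in vehicle libraries without (horizontal) and with (vertical) composition covariates, for 34 genes colored by class, with standard errors; the dashed line marks equal values. Hspa5, Manf, Sdf2l1 and Hspe1 stay near the line, while Atf4 is at -0.38 without and -0.080 with covariates.

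The count of 17 was 12 without the 6 libraries high in Slc17a6 (7.07% of all genes lower) and 13 without the 10 high in Alb (2.58%). It was 11 without vehicle neutral-cue library 4 alone (3.66%). The count also rose, to 19 by voom, 19 without the libraries high in Plin1 and 22 without vehicle neutral-cue library 2. For these rises the share of all genes lower is not given. Leaving out the 10 libraries high in Plin1 left 5 vehicle anxiety-cue and 3 vehicle neutral-cue libraries, and of those 3 neutral-cue libraries 2 were high in Slc17a6. In that smaller set 2972 of 17565 genes (16.9%) passed the adjusted threshold, and so did 11 of the 34, of which 10 fell and 1 rose. Those that fell were Manf, Pdia3, Pdia6, Canx, Dnajb9, Atf4, Ddit3, Hspa8, Hsp90aa1 and Hspa9, and Hsf1 rose. Hspa5, Sdf2l1 and Calr were not among them. For 6 of the 11 (Canx, Dnajb9, Atf4, Ddit3, Hsp90aa1 and Hspa9), at most 4 of the 26 libraries with lower Slc17a6 reached the range of the 6 with high Slc17a6. The part of neighbouring tissue in that result was not tested.

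In other genes of the same pathways, 1 of 15 measured sensors and targets of the unfolded protein response was lower and 1 higher at an unadjusted p under 0.05, near the 6.34% lower and 6.41% higher among all genes, which are also the shares beside the lists that follow. Mbtps1, the protease that cleaves Atf6, was at 113, 165 and 176 CPM in vehicle anxiety-cue libraries and 112, 133 and 175 CPM in vehicle neutral-cue libraries, a log2 fold change of 0.24 (SE 0.092). Atf3, a stress factor, was at -1.5 (SE 0.67), but its medians ran the other way, 0.44 CPM with the anxiety cue and 0.35 CPM with the neutral cue. The highest neutral-cue libraries were at 3.13 and 2.62 CPM, and the highest anxiety-cue library at 0.58 CPM. Of 32 measured ER folding and translocation genes 4 were lower and 0 higher, among them Ppib, an ER prolyl isomerase, at -0.21 (SE 0.062), and Ssr2, of the translocon-associated complex, at -0.22 (SE 0.079). Of 20 ERAD genes 4 were lower and 0 higher, among them Selenok at -0.23 (SE 0.066) and Erlec1 at -0.28 (SE 0.098).

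Of 33 other heat shock response genes 8 were lower and 1 higher, among them the Hsp90 co-chaperones Fkbp4 at -0.20 (SE 0.067) and Stip1 at -0.22 (SE 0.074). All 13 measured subunits of the chaperonin TRiC and of prefoldin, which fold actin and tubulin, lay below 0 with a median of -0.14, and 7 had an unadjusted p under 0.05. Pfdn2 was at 52.6, 59.4 and 79.1 CPM in vehicle anxiety-cue libraries and 59.9, 72.6 and 97 CPM in vehicle neutral-cue libraries, a fold change of -0.25 (SE 0.086). Pfdn6 was at -0.20 (SE 0.072). Of 15 other mitochondrial chaperones and proteases 0 were lower and 0 higher, with a median of 0.022, Grpel1 at -0.12 and Lonp1 at 0.085. None of these genes passed the adjusted threshold by edgeR.

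CBD was set against vehicle in rats with the anxiety cue. With CBD 30 of the 34 genes lay above 0, but by little: the median log2 fold change was 0.052, against -0.0033 over all genes. With the composition covariates 19 lay above 0, with a median of 0.016, and the regulators had a median of -0.027. No gene passed by edgeR (0% called), DESeq2 or voom, and 270 had an unadjusted p under 0.05, of which 0 of the 34 (all genes 0.832% lower and 0.75% higher). By voom 9 of the 34, 6 of them ER chaperones, were higher at that level, beside 4.09% of all genes. The ER chaperones had a median of 0.070 with 12 of 14 above 0, the regulators 0.049 with 5 of 7, the cytosolic chaperones 0.029 with 10 of 10, and the mitochondrial chaperones 0.022 with 3 of 3. This comparison shares the vehicle anxiety-cue libraries with the one before, in which that group was lower.

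Hspa5 was at 0.16 (SE 0.087), Pdia3 at 0.098 (SE 0.053) and Manf at 0.12 (SE 0.079) with CBD. Xbp1 was at 0.14 (SE 0.073) and Ddit3 at 0.17 (SE 0.16). Dnaja1, a J-domain partner of Hspa8, was at 0.11 (SE 0.078) and Hspa8 at 0.081 (SE 0.065), while Hspa9 was at 0.073 (SE 0.075) and Hspd1 at 0.022 (SE 0.070). Each adjusted p was 1 by edgeR's test, and every one of these values lay within 2 standard errors of 0.

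CBD was also set against vehicle with the neutral cue. With CBD 27 of 34 genes, among them all 14 ER chaperones, lay below 0, and the median was -0.12 against 0.0055 over all genes. Of the 34, 9 were lower and 0 higher at an unadjusted p under 0.05, beside 12% lower and 10.5% higher among all genes. That share of 9 in 34 is nearer to the background than in the cue comparison. None of the 34 passed the adjusted threshold by edgeR, DESeq2 or voom. Over all genes 3852 had an unadjusted p under 0.05, and edgeR called 0 (0%), DESeq2 377 and voom 1. The vehicle neutral-cue libraries are the same ones that the cue comparison used.

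Bag3 had the smallest p of the 34 with CBD, at -0.37 (SE 0.13, adjusted p = 0.123 by edgeR), and Hspa8 was at -0.14 (SE 0.065). Hyou1 was at -0.17 (SE 0.061, adjusted p = 0.131 by edgeR) and Dnajb9 at -0.29 (SE 0.12). Ddit3 was at -0.43 (SE 0.16) and Atf4 at -0.39 (SE 0.15), beside -0.41 and -0.38 for the anxiety cue in vehicle libraries against the same vehicle neutral-cue group. Hspe1 was at -0.16 (SE 0.084) and Hspa9 at -0.10 (SE 0.075), and Hsph1 again stood on the other side at 0.19 (SE 0.11), but at -0.10 with the composition covariates.

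The count of 9 moved with the libraries included. It was 1 without the libraries high in Alb (7.63% of all genes lower), which include 4 of the 8 CBD neutral-cue libraries. It was 4 with the composition covariates (2.73%) and 4 without the libraries high in Slc17a6 (6.03%). Without vehicle neutral-cue library 6 or 8 it was 5, without library 7 it was 14, and without library 2 it was 15. The share of all genes is not given for these single-library removals, so they show only that the count moves. Without the libraries high in Plin1, 2761 genes (15.7%) passed the adjusted threshold and 8 of the 34 fell: Canx, Dnajb9, Hyou1, Atf4, Ddit3, Hsp90aa1, Hspa9 and Hspd1. Hspa5 and Manf were not among these 8 genes. The set without libraries high in Plin1 held 3 vehicle neutral-cue libraries, 2 of them high in Slc17a6. It held 8 CBD neutral-cue libraries, 0 of them high in Slc17a6. The part of neighbouring tissue in that result was not tested.

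The anxiety cue under CBD was read from CBD anxiety-cue against CBD neutral-cue libraries. The median of the 34 genes was 0.012, against -0.0035 over all genes, and 11 lay below 0 and 23 above. Without CBD neutral-cue library 4, 20 lay below 0 and the median was -0.0034. With the composition covariates 20 lay below 0 (median -0.012), as did 20 without the libraries high in Alb (median -0.011). No gene passed by edgeR (0% called), DESeq2 or voom, with 672 at an unadjusted p under 0.05 (2.29% lower and 1.65% higher). Of the 34, Hyou1 was at that level, at 0.14 (SE 0.061, adjusted p = 0.995 by edgeR). Dnajb11 was at -0.090 (SE 0.054), Ddit3 at 0.19 (SE 0.16), Atf6 at -0.057 (SE 0.067), Hsf1 at 0.093 (SE 0.092), Hspa8 at 0.058 (SE 0.065), Hspa9 at 0.047 (SE 0.075) and Hspe1 at -0.043 (SE 0.084). The ER chaperones had a median of 0.0063, with 6 of 14 below 0.

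The interaction compares the CBD effect under the anxiety cue with that under the neutral cue. It was above 0 for 30 of 34 genes and for 14 of 14 ER chaperones, with medians of 0.18 and 0.22, against -0.0075 over all genes. By edgeR 0% of genes were called, with 2353 at an unadjusted p under 0.05, while DESeq2 called 12 and voom 0, none of them among the 34. At the unadjusted level 10 of 34 were higher and 0 lower, beside 7.02% higher and 6.78% lower among all genes. These were 6 ER chaperones, 2 regulators and 2 cytosolic chaperones. The interaction is also the cue effect under CBD less the cue effect in vehicle libraries. Over the ER chaperones those 2 cue effects had medians of 0.0063 and -0.19. It thus reuses the libraries of the cue comparison in vehicle and is not a separate result.

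Pdia3 had the smallest p, with an interaction of 0.22 (SE 0.075, adjusted p = 0.321 by edgeR), and Hyou1 was at 0.24 (SE 0.086). Ddit3 was at 0.60 (SE 0.22) and Atf4 at 0.50 (SE 0.22). Hspa8 was at 0.22 (SE 0.092), Bag3 at 0.37 (SE 0.18), Hspa9 at 0.17 (SE 0.11) and Hspe1 at 0.17 (SE 0.12). With the composition covariates the count of 10 was 3, all ER chaperones, beside 2.65% of all genes higher, and the median of the regulators was -0.075. The count was 4 without the libraries high in Alb (5.92% of all genes higher), 17 by voom (11.2%) and 17 without vehicle neutral-cue library 2. For that last removal the share of all genes is not given. Without the libraries high in Plin1, 1475 genes (8.4%) passed and Canx, Dnajb9, Hyou1 and Hspa9 had a positive interaction past the threshold. That set held 3 vehicle neutral-cue libraries, 2 of them high in Slc17a6. With the composition covariates the interactions of Canx (-0.0205), Dnajb9 (-0.0162) and Hspa9 (-0.0026) turned, and that of Hyou1 did not. The part of neighbouring tissue in these values was not tested.

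Averaged over both drug arms, the anxiety cue gave a median of -0.063 over the 34 genes, against -0.0021 over all genes, and -0.094 over the ER chaperones with 13 of 14 below 0. At an unadjusted p under 0.05, 9 were lower, 8 of them ER chaperones, beside 1.74% lower and 1.89% higher among all genes. Dnajb11 was at -0.14 (SE 0.038, unadjusted p = 0.000938, adjusted p = 1 by edgeR), and Manf was at -0.15 (SE 0.056). Xbp1 was at -0.068 (SE 0.052), Atf4 at -0.13 (SE 0.11), Hsp90aa1 at -0.095 (SE 0.060), Hsf1 at 0.099 (SE 0.065), Hspe1 at -0.13 (SE 0.059) and Hspd1 at -0.038 (SE 0.050). The count of 9 was 4 without vehicle anxiety-cue library 6, and 5 without any 1 of vehicle anxiety-cue libraries 3 and 7, vehicle neutral-cue libraries 1 and 5 and CBD neutral-cue library 7. It was 14 without the libraries high in Plin1. The shares of all genes in these removals are not given, so they show only that the count moves. By edgeR 0% of genes were called, with 619 at an unadjusted p under 0.05, and DESeq2 and voom called 0.

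Averaged over both cues, CBD gave a median of -0.013 over the 34 genes, against 0.00051 over all genes, with 20 of 34 below 0. Bag3 was lower at an unadjusted p under 0.05, at -0.18 (SE 0.088), beside 4.11% lower and 3.16% higher among all genes. Dnajb9 was at -0.15 (SE 0.082), Creld2 at -0.11 (SE 0.064), Atf4 at -0.14 (SE 0.11), Ddit3 at -0.13 (SE 0.11), Hsph1 at 0.11 (SE 0.074), Hspe1 at -0.071 (SE 0.059) and Hspd1 at -0.029 (SE 0.050). By edgeR 0% of genes were called, with 1240 at an unadjusted p under 0.05, while DESeq2 called 8 and voom 0, none of them among the 34.

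The genes also varied together from library to library within groups. After the group means were taken from the log2 CPM, Hspa5 correlated over the 32 libraries with Manf (Pearson's r 0.833, permutation adjusted p = 8.25e-05; Spearman's rho 0.829, adjusted p = 6.6e-05), the closest of 33 pairs. Pdia4 followed (r 0.829, rho 0.79), then Xbp1 (r 0.813, rho 0.78) and the cytosolic Hspa8 (r 0.756, rho 0.751), with the same adjusted p values. Of the 33 pairs 19 passed an adjusted p of 0.05, and 31 of 33 were positive. Without the 2 libraries farthest from the median of Hspa5 the r of these 4 pairs was 0.779, 0.788, 0.761 and 0.694. Without the 6 libraries high in Slc17a6 it was 0.861, 0.87, 0.821 and 0.839. Both removals kept the group means of all 32 libraries, so offsets between groups can enter these r. Atf4 (r 0.205), Canx (0.197), Hspa9 (0.168), Atf6 (0.089) and Bag3 (0.074) stood near 0, and Hsf1 (-0.354) and Edem1 (-0.209) were below 0, none passing an adjusted permutation p of 0.05. All libraries share 1 set of counts and scaling, so depth and tissue makeup enter every pair. Pairs of Hspa5 with genes outside the list were not tested, so the 19 of 33 is not shown to be particular to these genes.

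The 6 pairs below were chosen for their r after the matrix of correlations was seen, so their values are a description with no test. Canx correlated with Hspa9 (r 0.92, rho 0.847), Dnajb9 (r 0.909, rho 0.827) and Hsp90aa1 (r 0.885, rho 0.898). In the 26 libraries without high Slc17a6 these r were 0.846, 0.84 and 0.9. For these 6 pairs the group means were taken anew over the 26, unlike for the pairs of Hspa5 above. With Hspa5, Canx, Hspa9 and Dnajb9 had an r of 0.197, 0.168 and 0.213, while Hsp90aa1 had 0.436 and was among the 19 pairs that passed (permutation adjusted p = 0.0301; rho 0.327, adjusted p = 0.122). Atf4 correlated with Ddit3 at r 0.87 (rho 0.823) over 32 libraries and 0.686 over 26. Hsf1 and Hspa4 ran against each other, with r -0.784 (rho -0.637) over 32 libraries and -0.793 over 26. Hsph1 and Atf4 had r -0.737 (rho -0.637) over 32 libraries but -0.113 over the 26, so that value rested on the 6 libraries. The r over 32 libraries was also taken without the 2 libraries farthest from the median of the first gene of each pair. The group means of all 32 were kept there. That r ranged from 0.832 to 0.894 for the 3 Canx pairs. It was 0.835 for Atf4 with Ddit3, -0.655 for Hsf1 with Hspa4 and -0.609 for Hsph1 with Atf4.

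By class, the median r was 0.459 over the 91 pairs of ER chaperones, 0.204 over the 45 cytosolic pairs, 0.171 over the 21 pairs of regulators and 0.355 over the 3 mitochondrial pairs. Between ER and mitochondrial chaperones it was 0.398 over 42 pairs, and between ER and cytosolic chaperones 0.393 over 140. Between regulators and mitochondrial chaperones it was 0.433 over 21 pairs, near the value within ER chaperones. It was 0.369 over 30 cytosolic and mitochondrial pairs, 0.288 over 98 ER and regulator pairs, and 0.22 over 70 regulator and cytosolic pairs. Pairs of genes outside the list were not compared. These medians describe the 32 libraries, and pairs that share a gene are not independent.

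**Figure D5:**
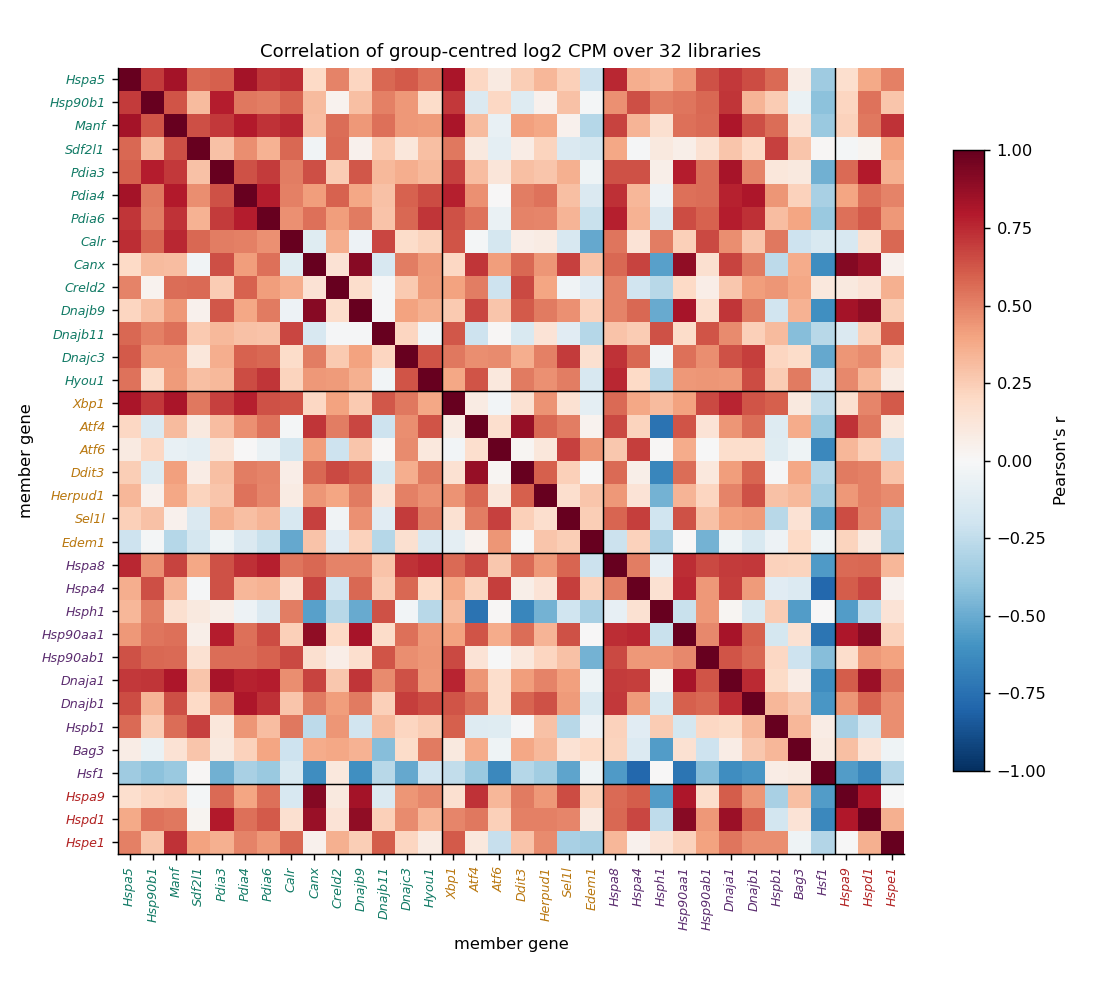
Pearson's r of group-centred log2 CPM between all pairs of the 34 genes over 32 libraries; both axes list genes by class (label color), and black lines divide classes. Hspa5 is red with Manf, Pdia4 and Xbp1 (r 0.813 to 0.833). Canx is red with Dnajb9, Hsp90aa1 and Hspa9 (r 0.885 to 0.92), and the row of Hsf1 is mostly blue.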

How the data were processed

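Each polyA RNA-seq library took its group from its treatment label. The authors deposited whole-number counts of reads per gene symbol. The submitters' processing notes name the builds mRatBN7.2 and Rnor_6.0 and the tools STAR, featureCounts and DESeq2. Their versions and the strand setting are not given in the sources used here. Counts of genes with near-identical copies or pseudogenes (Hspa8, Hsp90aa1, Hsp90ab1, Hspd1, Hspe1) and of overlapping genes are therefore uncertain. Columns were matched to libraries by title. Libraries of a group differed by more than sampling noise in all 112 pairs (chi-square per degree of freedom from 5.56 to 112).

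The main test was edgeR's quasi-likelihood test (version 4.0.16, R 4.3.3) on 1 mean per group over all 32 libraries, with 7 contrasts. The filter filterByExpr dropped 17263 genes and left 17059, and TMM scaled the libraries. Benjamini-Hochberg adjustment ran over all genes tested, with a threshold of 0.05. CPM values are TMM-scaled, and log2 CPM carry a prior count of 2. Limits for high Slc17a6, Alb and Plin1 (20, 30 and 6 CPM) used plain CPM. Alternatives used DESeq2 1.42.0, voom with quality weights of limma 3.58.1, other scaling and filters, robust estimation, fewer groups, composition covariates and fewer libraries. The fit was checked on simulated data. Correlations used 100000 permutations within groups, 2-sided, adjusted over the pairs of a set. Promoters came from RefSeq's GRCr8 table, matched by symbol.

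The genes and lists were chosen with earlier results of these data known. All 34 could be named. A fixed 22 are given with levels in every group, and fold changes are given for the 2 genes per class with the smallest p, for Hspa5, Manf, Hspa8 and Hspd1 in the first comparisons, and for others chosen after their values were seen. For each pathway list the 2 genes with the smallest p for the cue in vehicle libraries are named. Hspa1a and Vbp1 were not analysed here. Promoter matches other than those printed are not reported here.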

Additional observations from a re-analysis of the deposited data

Results flagged for a closer look

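Single libraries stood apart from the other 7 of their group in 14 of 136 sets of values, by the gap to the nearest library relative to the range. Chance alone flags about 5% of such sets. In vehicle anxiety-cue library 5, which had 47 CPM of Slc17a6 and 97.4 CPM of Drd1, 7 genes stood apart: Canx at 737 CPM, Dnajb9 at 42.1 CPM, Atf4 at 135 CPM, Ddit3 at 24 CPM, Bag3 at 26.9 CPM and Hspa9 at 291 CPM were high, and Hsph1 at 384 CPM was low. In CBD neutral-cue library 6, which had 877 CPM of Slc17a7, Atf4 at 128 CPM, Sel1l, an ERAD adaptor, at 241 CPM and Hspa9 at 282 CPM were high. In CBD neutral-cue library 3, which had 225.6 CPM of Alb, Herpud1 at 56 CPM and Edem1, an ERAD lectin, at 42.2 CPM were high. Sdf2l1 was high at 24.9 CPM in CBD neutral-cue library 7, and Hsp90b1 was low at 405 CPM in vehicle neutral-cue library 2. The part of tissue makeup in these values was not tested.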

How the results depend on the processing

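No member passed the adjusted threshold under any setting except the removal of libraries high in Plin1, which gave 11 genes for the anxiety cue in vehicle, 8 for CBD with the neutral cue and 4 for the interaction. Over all genes that removal gave 2972, 2761 and 1475 calls, and 109 for the mean anxiety cue; the cause was not tested. Without the libraries high in Slc17a6, 19 genes were called for the cue in vehicle and 31 for CBD with the neutral cue. DESeq2 called 377 genes for CBD with the neutral cue, 12 for the interaction and 8 for mean CBD. For CBD with the neutral cue voom called 1 and the fit of its own 2 groups 4. Leaving out each library in turn gave 0 to 165 genes for that comparison (68 without vehicle anxiety-cue library 4, 165 without library 5), 0 to 10 for the interaction (10 without library 5) and 0 to 61 for mean CBD (61 without library 4); none was one of the 34.

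Directions of some uncalled fold changes turned, also in genes not listed here. Outside the anxiety cue in vehicle, the genes listed are those with a main fold change printed above for that comparison. With composition covariates they were Hspd1 for CBD with the anxiety cue (-0.022, and -0.00093 with a fat cell marker covariate chosen after seeing the data), Hspa9 (0.0076) and Hsph1 (-0.10) for CBD with the neutral cue, Hspa9 for the cue in CBD (-0.0097) and the interaction (-0.0026), and Bag3 (0.011) and Hsph1 (-0.034) for mean CBD. Without the libraries high in Slc17a6 they were Hspa9 for CBD with the neutral cue (0.036), Ddit3 for the cue in CBD (-0.044) and Hspd1 for mean CBD (0.0099). Without those high in Alb they were Hspa8 for the cue in CBD (-0.0028), and Creld2 (5.63e-05), Atf4 (0.0062) and Ddit3 (0.074) for mean CBD. For the anxiety cue in vehicle, 5 of the 34 turned under at least 1 of 12 settings (single-library removals not counted): Hsph1 (-0.039), Dnajb1 (0.017) and Hspa4 (0.0022) with composition covariates, Creld2 (0.0067) without libraries high in Plin1, and Sel1l (-0.027 by voom). Over all 34 genes 15 turned for CBD with the anxiety cue, 11 for CBD with the neutral cue and 12 for the interaction. In the same count, over 11 or 12 settings, 8 turned for the mean anxiety cue, 24 for the cue in CBD and 29 for mean CBD. Of 1525 class medians over all settings 7 moved by more than the spread used. That spread was the pooled standard deviation, between libraries of a group, of the mean log2 CPM of the class. A small median can thus reach 0 or change sign without counting as moved, and most settings left out only 1 library. No paired analysis was possible because library numbers follow only the order of deposition. Depth limits Hspb1 most, which had 3.17 to 9.6 CPM.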
